A study of Solanum tuberosum with 72 samples.

Results

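The spots described here had a higher log2 ratio on cold arrays than on control arrays in both leaf and root of potato seedlings after 27 h, and no such difference in 2 of the salt comparisons. They were chosen by measured values. A spot was kept where every one of the 24 groups of tissue, condition and time had at least 2 values, and where d, the mean of 3 stress arrays minus that of 3 controls from one tissue and time, met 4 limits. These limits were d of 1 or more, which is 2-fold or more, in leaf and in root after 27 h of cold, and d below 0.5 in leaf after 27 h of salt and in root after 3 h of salt. The rule selected 38 spots out of 13585 with enough values and out of 32448 on the array. Because most sequences were printed as a pair of spots, the 38 spots came from 25 printed pairs. Both spots were members in 13 pairs, and a single spot in 12.

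Seedlings of the potato variety Gilroy (Solanum tuberosum) were grown for 5 weeks in hydroponic medium at 25 °C with 16 h of light and 8 h of dark. They were then moved to medium at 4 °C (cold) or at 35 °C (heat), or to medium with NaCl (salt), and roots and aerial tissue, here called leaf, were collected after 3, 9 and 27 h. The NaCl level reads 100 mM in one label and 150 mM in another, so the dose is not settled. Unstressed controls had their medium changed at the same times, each sample pooled 6 plants, and the experiment was run 3 independent times, which gives 3 arrays in each group. On every array the sample carried Cy3 and a pool of unstressed plants, of that tissue and time, carried Cy5 as the reference, with no dye swap.

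Which channel is the numerator of the deposited log2 ratio is not stated. A positive difference below means that stress arrays read higher than control arrays, whether RNA rose or fell. If the reference is the numerator, every sign in the text turns over together, while sizes and p-values stay. Over all 2556 possible array pairs, 1 correlated below -0.3 (r = -0.355). In whole tissues, a change in the share of a cell type and a change of RNA per cell cannot be told apart.

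The arrays had 15580 to 20545 measured spots and medians of 0 to 0.014. Precision is limited by how many arrays there were. The tissue labels could not be checked by leaf genes, since each ratio is taken against the same tissue. Of 60 spots annotated to genes of the small subunit of rubisco, the enzyme that fixes carbon dioxide in leaves, 35 had no value on any leaf array and 8 had none on any root array.

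Plants that meet cold relay it through membrane and calcium signals, protein kinase cascades, reactive oxygen species and transcription factors, and many of the components also serve defence against pathogens and wounding. Mitogen-activated protein (MAP) kinases are switched on by phosphorylation and switched off by phosphatases. WRKY transcription factors bind W-box motifs in promoters, and NADPH oxidases of the respiratory burst oxidase homologue (RBOH) family make superoxide outside the cell.

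Only 8 of the 38 members have a gene in the annotation, and these 8 spots stand for 5 genes. The background above was written with these 5 names known, so that they fall under it is no result. For scale, 28 of the 1189 spots with 1 gene and with values in both tissues hold the name of a WRKY factor, a kinase or phosphatase of these kinds or an RBOH in the list given at the end, a list also made with the names known. STWRKY8 (2 spots) and LOC102605073, with the synonym StWRKY16 (1 spot), are WRKY factors. LOC102585585, StWIPK (1 spot), is named for the wound-induced protein kinase, a MAP kinase of defence signalling in tobacco. LOC102603986, StMKP1 (2 spots), carries the name of a MAP kinase phosphatase, and LOC102598898, StrbohC (2 spots), is an RBOH oxidase. The other 30 members have no gene listed. The annotation names a single gene for 1630 of the 32448 spots. Close relatives of a gene can bind to the same spot, which was not tested.

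The values that chose the members are given as a description only. In leaf after 27 h of cold the 38 differences ran from 1.01 to 2.001 with a median of 1.27, and in root from 1.07 to 3.02 with a median of 1.62. The median in leaf after 27 h of salt was 0.18, and in root after 3 h of salt it was 0.11. The limits fall within a continuous range of values. The member nearest the leaf cold limit had 1.01 and the nearest spot outside had 0.99. At the root cold limit these values were 1.07 and 0.95, at the leaf salt limit 0.497 and 0.503, and at the root salt limit 0.494 and 0.637. A total of 456 spots missed the leaf cold limit and no other. After quantile scaling between arrays 9 spots met the rule, 8 of them among the 38. Among the 12 single members, 10 had a printed partner that missed a limit and 2 had a partner with too few values. Where both spots of a pair were members, their values over the 72 arrays correlated with r between 0.90 and 0.99, as the same sequence measured on the same slides.

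A total of 9 comparisons share no array with the rule, namely all those of leaf at 3 h, leaf at 9 h and root at 9 h. The other 5 not used by the rule (root cold 3 h, root heat 3 h, root heat 27 h, root salt 27 h and leaf heat 27 h) share their control arrays with it, so a control array that was low or high acts on both. A spot was called where limma's moderated test, with Benjamini-Hochberg adjustment over all spots tested in the tissue, gave an adjusted p below 0.05.

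In leaf the positive cold difference was already present at the first time. After 3 h of cold all 38 members lay above 0, with a median of 1.31 and a range of 0.32 to 3.00, and 33 of them were at 2-fold or more. Of the 38, 32 members from 22 pairs were called positive and none negative, against 9.17% of all 15601 leaf spots called positive. After 9 h all 38 again lay above 0, but the median was 0.87 (range 0.09 to 2.38). A total of 24 members from 18 pairs were called positive, against 11.8% of all leaf spots. In all, 22 members were called at both times, 10 at 3 h alone, 2 at 9 h alone and 4 at neither. The shares of all spots in these 4 classes were not counted. The count at 9 h was lower in several settings, for which no share of all spots is given here. It was 4 without replicate 2, 12 without the control array of that replicate and 13 without its cold array, it was 15 without replicate 3, and it was 4 under quantile scaling between arrays.

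In root the members split at 3 h. The median difference after 3 h of cold was 0.11, with 21 of 38 members above 0 and a range of -0.78 to 3.44. A total of 9 members from 6 pairs were called positive, against 5.79% of all 14866 root spots, and 1 member was called negative. The 9 were both spots of STWRKY8, both of StrbohC, StWIPK and 4 spots with no gene listed. Without replicate 2 this count was 3. After 9 h of cold the median was 0.69 (range -0.41 to 3.68), 32 members lay above 0, and 22 members from 15 pairs were called positive and none negative, against 13.7% of all root spots. Under quantile scaling 13 were called. A total of 16 members were called in neither root comparison, although the rule had put all of them at 2-fold or more at 27 h. The share of all spots called in neither was not counted.

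**Figure D1:**
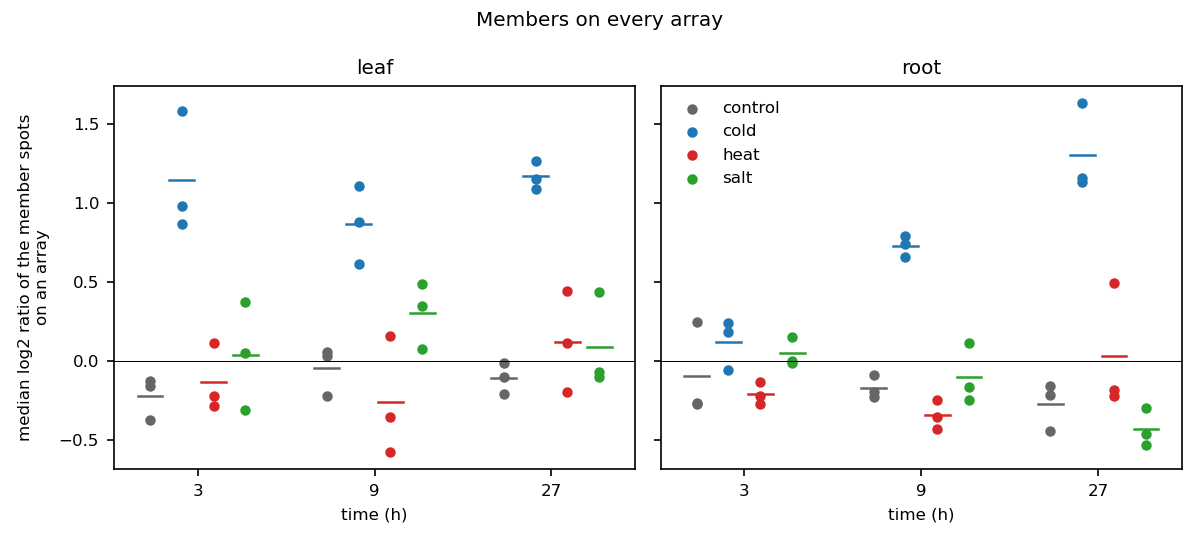
Median log2 ratio of the 38 member spots on each array (points, 3 arrays in a group) with the mean of the 3 arrays (bars), against time in h, for leaf and root; colours give the condition. The 3 leaf cold arrays lie above the other arrays of their time at every time, while root cold at 3 h, between -0.06 and 0.24, overlaps the controls; the values of cold at 27 h, leaf salt at 27 h and root salt at 3 h entered the choice of the spots.

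The medians over the members on single arrays show the same course. On leaf cold arrays they were 1.59, 0.86 and 0.98 at 3 h, and they lay between 0.61 and 1.11 at 9 h. On leaf control arrays they were never above 0.06 at any time. On root cold arrays they lay between -0.06 and 0.24 at 3 h and between 0.66 and 0.79 at 9 h. The 3 root control arrays at 3 h gave -0.28, -0.27 and 0.24, so 1 control array was as high as the highest cold array there. The median SD between the 3 arrays of a group had a median over groups of 0.29 for members and of 0.17 for all spots with values in both tissues. It was larger for members in each group except root salt at 3 h, with 0.179 for members and 0.217 for all spots.

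STWRKY8, in potato a WRKY factor studied for resistance to late blight, had the largest cold differences of the named members in root. In leaf at 3 h its first spot had log2 ratios of -0.30, -1.06 and -0.84 on the control arrays and 2.25, 0.91 and 1.11 on the cold arrays. These groups did not overlap, and the difference was 2.16 (SE 0.38, limma adjusted p = 0.0002058). In root at 9 h the control arrays gave -0.07, -0.64 and -0.18 and the cold arrays 2.81, 2.21 and 2.29, a difference of 2.73 (SE 0.32, limma adjusted p = 1.676e-07). Every cold array again lay above every control array. In root at 3 h the cold arrays were close together at 1.51, 1.34 and 1.30, but the controls were spread at -0.56, -0.32 and 0.99. The difference there was 1.35 (SE 0.32, limma adjusted p = 0.005009), and the call was lost without replicate 1 or without replicate 2. In leaf at 9 h it was 1.32 (limma adjusted p = 0.01139), a call lost when the first or second cold array or the second control array was left out. The second spot of the pair had 2.17, 1.39, 1.28 and 2.73 in leaf at 3 and 9 h and in root at 3 and 9 h.

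A further printed pair annotated to STWRKY8 lay outside the group because of 1 limit. It had differences of 0.72 and 0.69 in root after 3 h of salt, above the limit of 0.5. In cold it was like the member pair, with 2.04 and 1.96 in leaf at 3 h and 3.02 and 2.92 in root at 9 h. Whether the gene belongs to the group thus depends on which of its spots is read. The further pair was also called positive in root heat at 27 h, at 1.08 and 1.03 (limma adjusted p = 0.02745 and 0.03526). The member pair had 0.75 and 0.59 there and was not called (limma adjusted p = 0.0987 and 0.1291). Of all root spots, 19.3% were called in either direction in that comparison.

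StWIPK was the named member with the largest leaf difference at 3 h. Its control arrays there gave -0.17, -0.74 and -0.01 and its cold arrays 2.54, 1.87 and 1.85, a difference of 2.39 (SE 0.28, limma adjusted p = 8.837e-07). In leaf at 9 h the controls were 0.31, -0.38 and -0.09 and the cold arrays 0.61, 1.42 and 0.43, so the groups came close, with a difference of 0.87 (limma adjusted p = 0.02352) whose call was lost without the second cold array or without the control array of replicate 2 or of replicate 3. The fall of the leaf difference from 3 to 9 h, by 1.52, passed the test of the change itself (limma adjusted p = 0.03334). Root went the other way. Its cold arrays were 0.68, 1.251 and 0.93 at 3 h and 2.21, 1.58 and 1.99 at 9 h, against controls between -0.22 and 0.41. The root differences were 0.82 (limma adjusted p = 0.01358) and 2.02 (limma adjusted p = 5.083e-08), and the call at 3 h was lost without replicate 2. Leaf minus root was 1.57 at 3 h (limma adjusted p = 0.003247) and -1.14 at 9 h (limma adjusted p = 0.03795), so StWIPK was the only named member whose order of tissues was called in opposite directions at these times. Its partner spot missed the leaf cold limit at 0.94 and had like values, 2.40 in leaf at 3 h and 2.07 in root at 9 h.

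StrbohC differed from the others in having almost no cold difference in leaf at 9 h. In leaf at 3 h its first spot had 0.12, -0.47 and -0.36 on the control arrays and 1.96, 1.43 and 1.12 on the cold arrays, a difference of 1.74 (SE 0.30, limma adjusted p = 0.0001864). At 9 h the controls were 0.26, 0.06 and 0.24 and the cold arrays 0.19, 0.74 and -0.10. These overlapped, and the difference was 0.09 (limma adjusted p = 0.8787). The change between the times, -1.65, was called (limma adjusted p = 0.03175). Its partner had 1.79 and 0.26 at these times, and its change was not called. In root the 2 spots gave 0.82 and 0.88 at 3 h and 0.69 and 0.80 at 9 h, all called by limma, with the calls of the first spot lost without replicate 2 or without replicate 3.

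At 3 and 9 h, StMKP1 had its larger values where StWIPK had them, in leaf at 3 h and in root at 9 h. STWRKY8 and StWRKY16 had theirs there too, so this course was not particular to StMKP1 and StWIPK. In leaf at 3 h its first spot had controls of -0.22, -0.45 and -0.09 and cold arrays of 1.60, 1.16 and 1.195, a difference of 1.57 (SE 0.22, limma adjusted p = 9.603e-06). At 9 h the leaf difference was 0.58 and missed the threshold (limma adjusted p = 0.05224); it was called with replicate number as a block. In root at 3 h it was 0.56 (limma adjusted p = 0.08611), again called with the block. In root at 9 h the controls were -0.04, -0.30 and -0.20 and the cold arrays 1.13, 1.251 and 0.92, with no overlap and a difference of 1.28 (SE 0.21, limma adjusted p = 3.507e-05). The second spot had 1.59 in leaf at 3 h and 1.51 in root at 9 h.

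StWRKY16 was not called in root at 3 h. In leaf at 3 h its controls were 0.00, -0.38 and -0.43 and its cold arrays 1.48, 0.77 and 0.75, a difference of 1.27 (SE 0.25, limma adjusted p = 0.001012). In root at 3 h the difference was 0.11 (SE 0.33, limma adjusted p = 0.8791). Leaf minus root at 3 h was 1.16 and was not called (limma adjusted p = 0.09667). By 9 h the root controls were -0.17, -0.89 and -0.23 and the cold arrays 1.39, 0.61 and 1.23, and the difference was 1.51 (SE 0.33, limma adjusted p = 0.0008346). Its leaf difference at 9 h, 0.93, rests on 2 control values and was lost when 1 of several single arrays was left out. The partner spot missed the leaf salt limit at 0.61 and had 1.35 in leaf at 3 h and 1.60 in root at 9 h. Under quantile scaling between arrays the leaf calls at 9 h of STWRKY8, StWIPK and StWRKY16 and the root call at 9 h of StrbohC were lost.

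**Figure D2:**
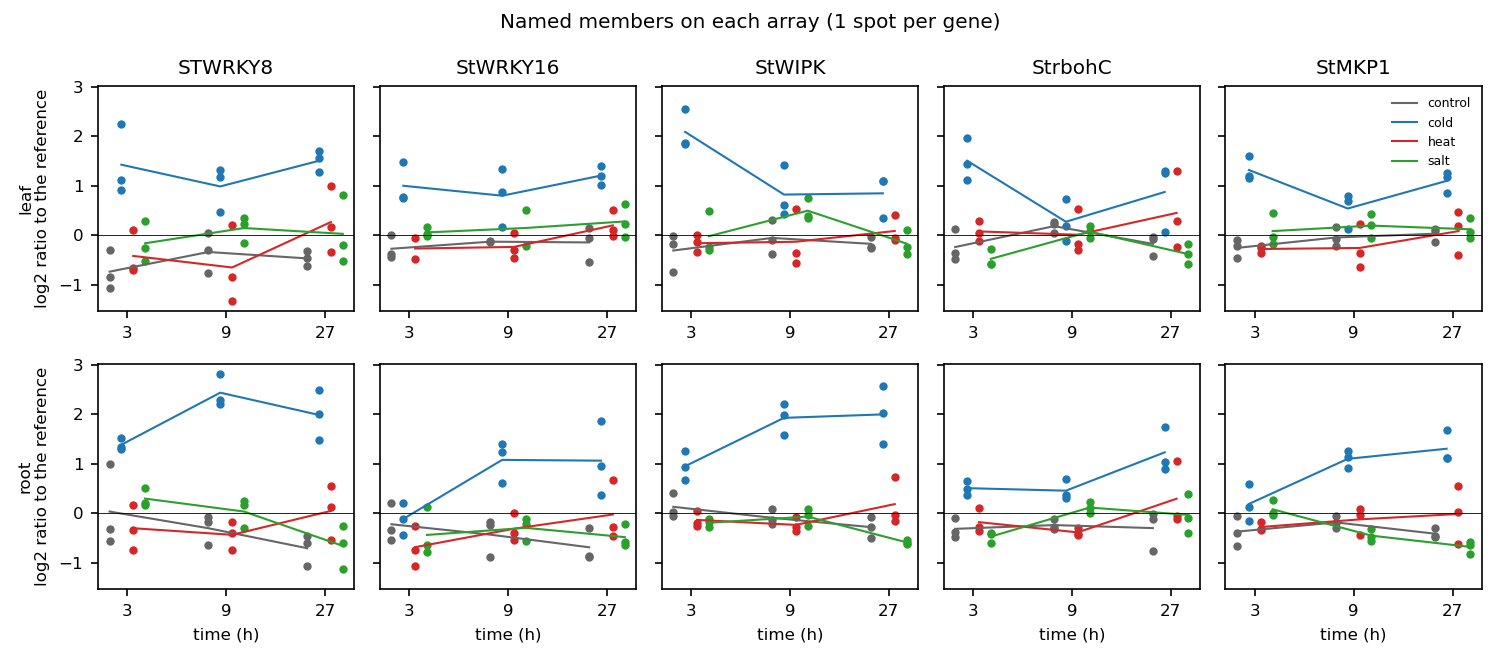
Log2 ratio to the reference (vertical axis) on each array for 1 spot of each named gene against time in h, leaf above and root below; points are arrays, lines join the means of the 3 arrays, and colours give the condition. Cold arrays of STWRKY8 lie highest in root at 9 h (2.21 to 2.81), and StrbohC in leaf at 9 h shows cold arrays (-0.10 to 0.74) among the controls.

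Among the members with no gene listed, the spot with number 152827 had the highest mean cold difference over both tissues at 9 h. Its root arrays at 3 h read 0.30, -0.53 and -1.03 in the controls and 2.30, 3.08 and 3.69 in cold, a difference of 3.44 (SE 0.47, limma adjusted p = 6.232e-06). At 9 h the root controls were 0.08, -0.38 and 0.10 and the cold arrays 3.42, 3.37 and 4.04, a difference of 3.68 (SE 0.47, limma adjusted p = 6.917e-07). These are the largest root differences of any member at either time. In leaf it had 3.00 at 3 h (SE 0.52, limma adjusted p = 0.0001864) and 1.78 at 9 h (limma adjusted p = 0.01322), the latter lost without replicate 2. It was also the member with most signal outside cold. Its leaf heat differences were 1.33 at 3 h and 1.70 at 27 h, where the heat arrays gave 1.496, 1.0 and 2.36, and its leaf salt difference at 9 h was 1.22, with salt arrays at 0.38, -0.32 and 1.84. None of these 3 was called. Another spot, outside this pair, followed it over the 72 arrays with r = 0.96, and the pair itself had r = 0.99. The next highest correlation with it, 0.82, was that of StWIPK. The 72 arrays include those the rule used, so the choice of the spots may have raised these correlations.

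The spot with number 139247 had the highest mean cold difference at 27 h, a value the rule used. It differed in timing from 152827. In leaf the controls at 9 h were 0.25, -0.51 and 0.50 and the cold arrays 2.54, 2.56 and 2.25, and the difference of 2.38 (SE 0.36, limma adjusted p = 1.612e-05) was the largest leaf value of any member at that time. In root at 3 h its cold arrays read 0.00, -0.04 and 0.47 against controls of -0.81, -0.10 and 2.04. The control of replicate 3 was far above the others, and the difference was -0.23 (limma adjusted p = 0.8219). At 9 h in root the controls were between -0.30 and -0.07 and the cold arrays 2.004, 1.58 and 1.76, a difference of 1.98 (SE 0.50, limma adjusted p = 0.003436). This call was lost without replicate 2 and under quantile scaling. On the root heat arrays at 9 h the spot read -1.60, -1.03 and -1.28, below all controls. The difference there, -1.10, was not called (limma adjusted p = 0.211).

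A pair of unnamed spots had the most negative root values of any member at 3 h. On the 3 root cold arrays at 3 h the second of these spots read -0.94, -0.56 and -0.67, below controls of -0.15, 0.19 and 0.15, and its difference of -0.78 was called (limma adjusted p = 0.01194). At 9 h its cold arrays read 1.04, 1.55 and 1.54. The change from 3 to 9 h was 1.75 for this spot (limma adjusted p = 0.000271) and 1.47 for its partner (limma adjusted p = 0.002986). In leaf it was already positive at 3 h, at 0.93, 1.14 and 1.23 on the cold arrays. It was the only member called negative in any comparison of cold with control.

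The change with time was tested directly. In root the cold difference was larger at 9 h than at 3 h in 34 of 38 members and smaller in 4. Of these changes, 9 were called positive and none negative, against 8.47% of root spots called positive. The median of this change was 0.52. The 9 were both STWRKY8 spots, StWRKY16, StWIPK, 1 spot of StMKP1, the spot 139247, the pair just described and 1 more spot with no gene listed. The root control arrays at 3 h are shared with the rule, and the count was 4 without the high one of replicate 3. It was 5 without the cold array of replicate 3 or the control array of replicate 2 at 9 h, 3 without replicate 2 or without replicate 3, and 0 under quantile scaling. When the heat arrays of the same times took the place of the controls, a comparison that shares no array with the rule and was added after seeing the data, 8 members were called positive, against 6.86% of root spots. In leaf the median change from 3 to 9 h was -0.40. Of the 38, 2 members were called, both negative (StWIPK and StrbohC), against 2.3% of leaf spots called in either direction. With replicate number as a block 4 members were called, and leaving out single arrays or experiments gave 0 to 3, with none left without any 1 of the 3 experiments. As a description that includes the rule's own 27 h values, 28 of 38 members had root differences ordered from 3 to 9 to 27 h, while in leaf 7 did and 26 were lower at 9 h than at both other times.

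Leaf and root were compared by the difference of their cold differences. At 3 h leaf exceeded root in 34 of 38 members, with a median excess of 1.06. A total of 12 members were called with the larger difference in leaf and none with the larger in root, against 5.34% of 13585 spots. These included StWIPK and 1 spot of StMKP1, and the others had no gene listed. With replicate number as a block the count was 24. It was 7, 6 and 4 without replicates 1, 2 and 3 and 19 without the first root control array at 3 h. Since the root control arrays at 3 h served the rule, the heat arrays were again put in the place of the controls in both tissues, and 14 members were called, against 4.36% of all spots. At 9 h the median was near 0, with values spread to either side of it. Leaf exceeded root in 20 of 38 members, with a median of 0.08 and a range of -2.21 to 1.51. By 2-fold or more, 6 members were higher in leaf and 7 in root. In the test 1 member was called higher in leaf and 3 higher in root, against 9.03% of spots called in either direction. With the block 11 members were called there, and leaving out single arrays or experiments gave 1 to 6. Counts of 1 or 2 came without replicate 1, the leaf control of replicate 1 or 3, the root cold array of replicate 1 or 3, or the root control of replicate 1 or 2. At 27 h, where the rule required a positive value in both tissues, 7 of 38 members were higher in leaf.

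**Figure D3:**
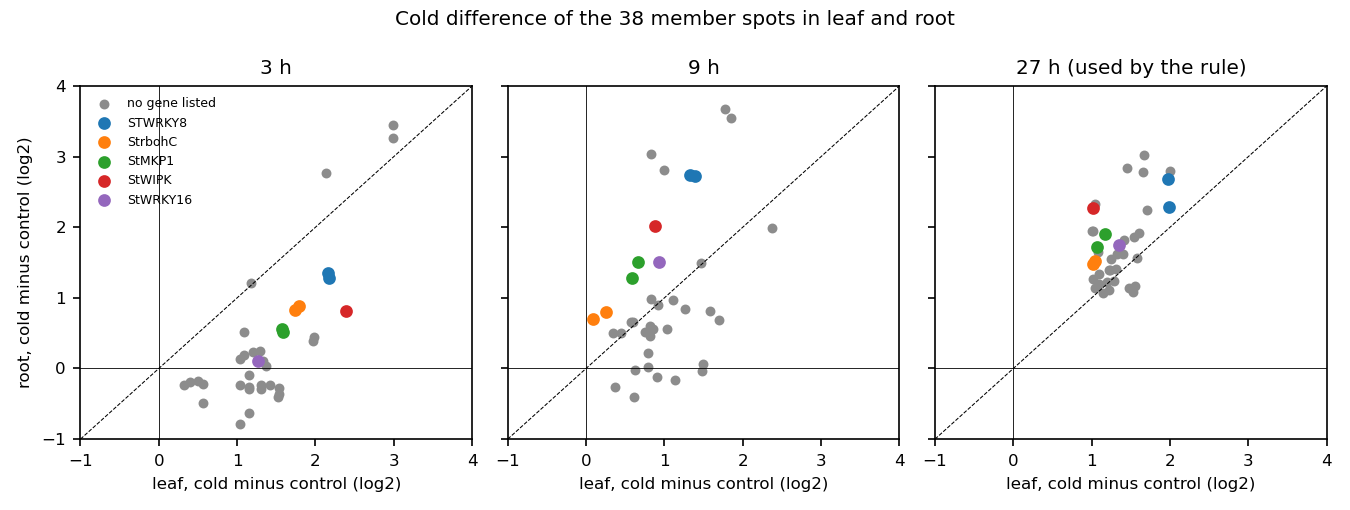
Cold minus control (log2) of the 38 member spots in leaf (horizontal axis) and root (vertical axis) at 3, 9 and 27 h; points are spots, colours mark the 5 named genes, and the dashed line marks equal values. At 3 h 34 of 38 points lie below the line and at 9 h 20 do; both values at 27 h were used to choose the spots.

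Across the 38 members, the leaf and root differences of the same time were related, with r = 0.787 and rho = 0.611 at 3 h and r = 0.443 and rho = 0.387 at 9 h. The root differences at 3 and 9 h had r = 0.852 and rho = 0.749, and the leaf differences at these times had r = 0.464 and rho = 0.386. These are descriptions across spots that share arrays and, in 13 cases, a sequence.

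The members were chosen for low salt values in 2 of the 6 salt comparisons, and the label of cold alone was checked against the other salt and all heat comparisons. The medians of the leaf salt differences were 0.30 at 3 h and 0.38 at 9 h. Those of the root salt differences were 0.05 at 9 h and -0.22 at 27 h. Most members were thus positive under leaf salt, with 33 of 38 above 0 at 3 h and 32 at 9 h. Under root salt 21 lay above 0 at 9 h and 8 at 27 h. Over all tested spots the medians of these 4 comparisons lay between -0.0133 and 0.000333. Members share arrays, so the counts above 0 are a description only. No member was called in these 4 comparisons by limma, against 0.756% and 8% of leaf spots and 4.33% and 2.33% of root spots called in either direction. At an unadjusted p below 0.05 the numbers were 3, 5, 1 and 1. The share of all spots at that level is not given here, so these numbers are a description only. In leaf salt at 9 h the block gave 3 calls, and 1 came without replicate 1. A total of 21 members stayed below 0.5 in all 6 salt comparisons, and 2, the pair of 152827, were at 2-fold or more in 1 of them.

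Heat was not part of the rule. In leaf its medians were 0.07, -0.21 and 0.32 at 3, 9 and 27 h, and limma called 0, 0 and 1 member, against 0.615%, 0.167% and 0.628% of leaf spots. The unadjusted p was below 0.05 for 4, 1 and 10 members. The 1 call was an unnamed spot at 27 h with 1.13, and it was lost in 8 of the settings that leave out an array or an experiment. In root the medians were -0.12, -0.25 and 0.19, with 0, 0 and 3 members called against 6.98%, 5.74% and 19.3% of root spots, and unadjusted p below 0.05 for 9, 5 and 10 members. For the unadjusted counts in leaf and root no share of all spots is given here, so they are a description only. The 3 calls at 27 h were 1 positive spot (0.66) and a printed pair with negative values (-0.80 and -0.82). With the block the counts in root were 3, 3 and 10. Without the root control array of replicate 1 or 3 at 3 h, 4 and 2 members were called at 3 h, and 1 without the second heat array. At 27 h no member was called without replicate 1, without replicate 2, without the second control array or without the first heat array, and 6 were called without the heat array of replicate 2 or 3. A total of 4 members were at 2-fold or more positive in some heat comparison. They were the pair of 152827, the spot most like it, and the unnamed spot called at 27 h. A total of 21 members stayed below 0.5 in all 6 heat comparisons, and 11 stayed below 0.5 in all 12 heat and salt comparisons. Read as that limit in each of the 12, the label of cold alone was met by these 11. The rule itself had set that limit in 2 of the salt comparisons. The share of all spots below 0.5 was not counted, so the 21, 21 and 11 are a description only.

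**Figure D4:**
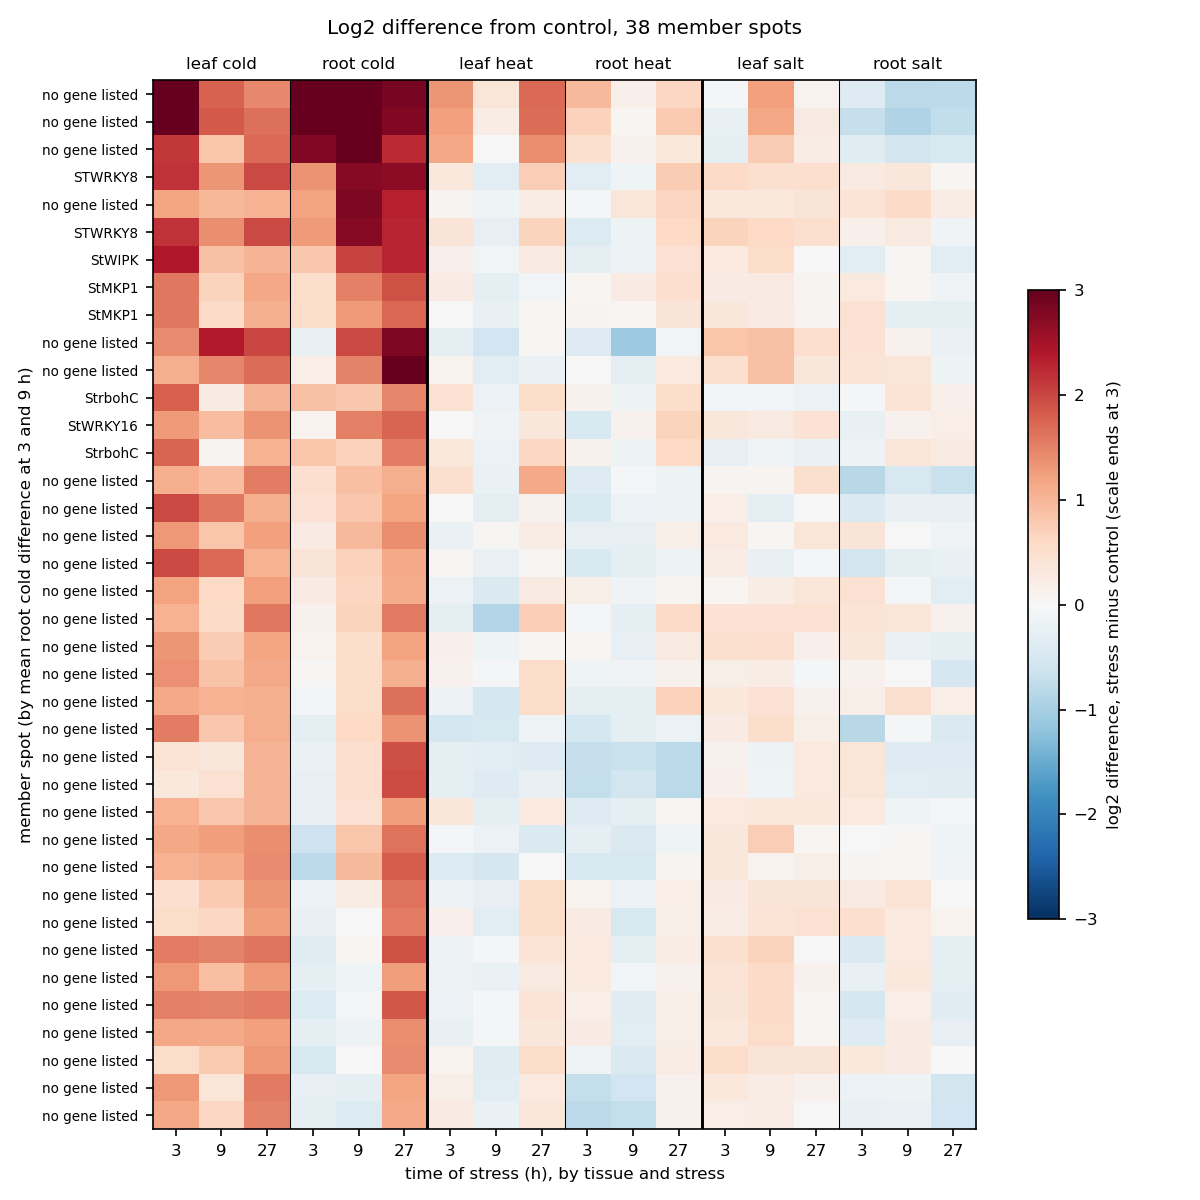
Log2 difference from control (colour, scale ending at 3 in either direction) of the 38 member spots (one per line, ordered by mean root cold difference at 3 and 9 h) in the 18 comparisons, by stress, tissue and time in h. Leaf cold is positive for all 38 at 3, 9 and 27 h, root cold at 3 h is positive for 21, and the pair at the top, that of 152827, is also positive in leaf heat (1.33 and 1.70 at 3 and 27 h for the spot numbered so).

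Cold was also set directly against salt and heat of the same tissue and time. Cold minus salt had a median of 0.99 in leaf at 3 h, where 20 members were called positive, against 5.67% of leaf spots. The count was 13 without the first cold array and 11 without replicate 1 or under quantile scaling. In leaf at 9 h the median was 0.54 and 6 members were called, against 4.78% of leaf spots, with 3 without the second cold or the second salt array and 2 without replicate 2 or under quantile scaling. In root at 9 h it was 0.81 with 24 members called, against 13.4% of root spots. Of the 38 members, 27 were called against salt in at least 1 of these 3 comparisons and 4 in all 3, with the share of all spots not counted for these joint calls. STWRKY8 is an example of the first kind. Its first spot had 1.58 in leaf at 3 h (limma adjusted p = 0.006804) and 2.40 in root at 9 h (limma adjusted p = 1.521e-06), but 0.84 in leaf at 9 h (limma adjusted p = 0.1843). The spot 152827 had 4.48 in root at 9 h (limma adjusted p = 2.384e-08) and 0.56 in leaf at 9 h (limma adjusted p = 0.576).

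Cold minus heat had medians of 1.34 and 1.11 in leaf at 3 and 9 h, with 31 and 33 members called positive, against 11.1% and 16.3% of leaf spots. Without replicate 2 the count at 9 h was 9. In root the medians were 0.47 and 0.95 at 3 and 9 h, with 10 and 28 members called, against 6.21% and 17.6% of root spots, and 6 at 3 h without replicate 2. The comparison in root at 3 h uses no array of the rule. Members called against heat in leaf at both times and in root at 9 h numbered 22, with the share of all spots not counted for this joint call. StWIPK had 2.24 in leaf at 3 h (limma adjusted p = 8.758e-07) and 2.16 in root at 9 h (limma adjusted p = 1.069e-08). StMKP1 had 1.59 (limma adjusted p = 3.611e-06) and 1.22 (limma adjusted p = 4.972e-05) for its first spot, and both spots of StrbohC had no call in leaf at 9 h, at 0.26 and 0.44.

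A total of 233 spots met both cold limits, and the 195 of them that missed a salt limit were set beside the members with no test. In leaf cold at 3 h their median was 1.27 and that of the members was 1.31. At 9 h it was 1.37 in leaf and 1.17 in root, where the members had 0.87 and 0.69. In root cold at 3 h it was 0.17, near the 0.11 of the members. In the salt comparisons that the rule did not use, the medians of the 195 were 0.56 and 0.72 in leaf at 3 and 9 h and 0.51 and 0.36 in root at 9 and 27 h, against 0.30, 0.38, 0.05 and -0.22 for the members.

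Other spots whose gene name or synonym holds WRKY, MPK, MKP, WIPK, CDPK, CPK or RBOH were listed to place the 5 named genes, a choice made after their values were seen. The list has 36 spots of 14 genes, of which 28 spots of 12 genes were tested in both tissues. Of the 20 tested spots that are no members, 8 were called positive in leaf cold at 3 h, 8 in leaf cold at 9 h, 5 in root cold at 3 h and 8 in root cold at 9 h, and none negative. Over all tested spots the shares called positive were 9.17%, 11.8%, 5.79% and 13.7%. These spots are not apart from the members, since some are partner spots of members or a further pair of the same gene. The 4 at 2-fold or more in leaf at 3 h were the further pair of STWRKY8 and the partner spots of StWRKY16 and StWIPK. The MAP kinases StMPK1, StMPK2, StMPK3 and StMPK4 and the calcium-dependent kinases CDPK2, StCDPK4 and StCDPK5 stayed below 1 in these 4 comparisons. Some of them were still called positive. Both CDPK2 spots were called in leaf and root at 3 h and in root at 9 h. Both StMPK3 spots were called in leaf and root at 9 h. No spot of StMPK4 or StCDPK5 was called in these comparisons. StMPK3 had 0.54 and 0.30 in leaf at 3 h and 0.59 and 0.49 in root at 9 h for its 2 spots, and CDPK2 had 0.38 and 0.64 in leaf at 3 h.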

How the data were processed

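The deposited table holds log2 ratios, made by the authors from 2-colour arrays, for 32448 spots and 72 arrays. Per the submitters' processing notes limma was used, with no version or role; how background and normalization were handled, and why cells are empty, is not given in the sources used here. In the labels, RNA extraction methods are named that differ. The members and lists were chosen with earlier results of these data known. Values were used as deposited. limma 3.58.1 in R 4.3.3 (lmFit, eBayes) was fitted to the 36 arrays of a tissue in 12 groups of 3, over spots with at least 2 values in every group of the tissue (15601 in leaf, 14866 in root), or to all 72 arrays for contrasts of leaf and root (13585 spots), calling spots at an adjusted p (Benjamini-Hochberg) below 0.05. SE is that of the moderated fit. The fit was tested on simulated data. Tables were made with Python 3.11.15, pandas 2.3.3 and matplotlib 3.10.9.

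Replicate numbers pair the arrays, since the labels make each an independent experiment with a shared reference pool; deviations of same-numbered stress and control arrays correlated with r from -0.0355 to 0.501, and 43 of 54 exceeded 0.1. A fit with the number as a block was an alternative. Others were fitting the compared groups alone, quantile scaling, median centring, requiring all 3 values, other limits of the rule, and leaving out each array and each experiment. Spot pairs were inferred from positions; all 905 annotated accessions with 2 spots lie at these positions.

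Genes come from the platform annotation and RefSeq (SolTub_3.0), which agree for all 1630 spots with 1 gene; 180 spots list several genes and 30638 none. Named in the text are members with a gene, and by number only the member highest in cold at 27 h and the one highest at 9 h. No member was called negative in any of the 9 comparisons of stress with control that share no array with the rule. No sequences or coordinates are given, as the files hold none.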

Additional observations from a re-analysis of the deposited data

Results flagged for a closer look

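The difference between the cold responses of leaf and root was tested itself, with limma. At 3 h it was called for 12 of 38 members, all with the larger response in leaf, against 5.34% of all spots called in that direction. At 9 h it was called for 4 of 38 members, 3 of them larger in root. In this fit, which ignores the pairing by replicate number, that share is near the 9.03% of all spots called in either direction and so no result about the members. More members were called with replicate number as a block or with the compared groups fitted alone, as given below. No share of all spots is given here for those fits. The root control array of replicate 3 at 3 h had a member median of 0.24, against -0.28 and -0.27 on the others, and its part in the result at 3 h was not tested beyond leaving it out, which gave 8 members. No group has over 3 arrays, so no single array was tested as an outlier.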

How the results depend on the processing

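Quantile scaling between arrays left 9 spots that met the rule, of which 8 were members as reported, and moved the counts of members called positive to 4 in leaf cold at 9 h, 13 in root cold at 9 h, 11 and 2 in leaf cold minus salt at 3 and 9 h, and 0 in root cold from 3 to 9 h. Counts in either direction under it were 2 in leaf heat at 27 h, 2, 2 and 6 in root heat at 3, 9 and 27 h, 1 and 1 in root salt at 9 and 27 h, and 0 both for leaf cold from 3 to 9 h and for leaf against root at 9 h. The cause was not tested. Fitting the compared groups alone gave 3 in leaf cold minus salt at 9 h, 0 in leaf heat at 27 h, 2 and 0 in root heat at 9 and 27 h, 1 in leaf salt and 1 in root salt at 9 h, 1 in leaf cold from 3 to 9 h and 7 for leaf against root at 9 h. With replicate number as a block, the pairing of the labels, counts were 24 and 11 for leaf against root at 3 and 9 h, 3, 3 and 10 in root heat, 3 in leaf salt at 9 h and 4 in leaf cold from 3 to 9 h; it moved no other count by over 1.5 times. Requiring all 3 values gave 28 members, 0 in leaf heat at 27 h and 1 in root heat at 3 h. A cold limit lower or higher by 0.25 gave 107 or 15 members and a salt limit of 0.25 or 0.75 gave 18 or 79; without one experiment 31 to 46 spots met the rule, and 25, 25 and 26 of these were among the 38. Centring gave 39. Leaving out single arrays or experiments gave counts of 22 to 31 and 4 to 24 in leaf cold at 3 and 9 h, 3 to 11 and 17 to 24 in root cold, 11 to 22, 2 to 8 and 17 to 24 for cold minus salt in leaf at 3 and 9 h and in root at 9 h, 21 to 31, 9 to 34, 6 to 11 and 22 to 27 for cold minus heat in leaf and root at 3 and 9 h, 3 to 10 for root cold from 3 to 9 h, 0 to 3 for leaf cold from 3 to 9 h, 4 to 19 and 1 to 6 for leaf against root at 3 and 9 h, 0 to 1 in leaf heat at 27 h, 0 to 4 and 0 to 6 in root heat at 3 and 27 h, 0 to 1 in leaf salt at 9 h, and 0 in the others. Heat arrays in place of controls, chosen after seeing the data, gave 14 for leaf against root at 3 h and 8 for root cold from 3 to 9 h. For the 7 single spots followed through the settings, no difference changed sign; 335 values kept their side of the threshold, 48 lost the call and 7 gained it. With 3 arrays a group, the number of arrays limits what can be told.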
